A study of Rattus norvegicus with 129 samples.

Results

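The pantetheinase gene Vnn1, the lipoprotein lipase inhibitor gene Angptl4 and the uncoupling protein genes Ucp2 and Ucp3 were followed in rat liver across 5 array studies, as 4 of the 14372 genes named on any of the arrays. Every probe set whose platform annotation names 1 of the 4 genes was taken. The array with 31042 tested probe sets held 5 of them, with 2 for Ucp3, and the array with 15866 held 4, with 1 for each gene. The oldest array, with 8740 tested probe sets, held 2 for Ucp2 and 2 for Ucp3, and Vnn1 and Angptl4 were not measured on it. No member probe set named a second gene. The members were selected on their differences between treated livers and their own controls in these data, so those differences, and any difference between them, are described with their errors and carry no test. Tests of members are given between vehicle groups alone, which share their rats with those differences. How many of all probe sets had groups without overlap was not counted, so overlap between groups is a description only.

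Each of the 129 arrays held RNA from the liver of 1 rat. The PB and PCN study dosed male and female Sprague-Dawley rats by gavage with vehicle (methylcellulose with Tween), with 100 mg/kg phenobarbital (PB), which activates the nuclear receptor CAR, or with 100 mg/kg of the steroid PCN, which activates the receptor PXR. Its 18 groups of 5 rats were sampled at 6 h, at 24 h, and a day after 5 daily doses. The D3T study fed 4-week-old female Sprague-Dawley rats with or without 600 mg/kg D3T in the chow, 4 rats each. In the 3-week study 60-day-old female Sprague-Dawley rats received Tween vehicle or PFOS at 5 mg/kg/day, 2 rats each. In the PFOA and PFOS study, 10-week-old male Sprague-Dawley rats were given Alkamuls vehicle, the perfluorinated carboxylic acid PFOA (ammonium salt) at 20 mg/kg/day or the perfluorinated sulfonic acid PFOS (potassium salt) at 10 mg/kg/day, 3 rats each, for a time the labels do not state. The Wy-14643 study used male Wistar Hanover rats on carboxymethyl cellulose vehicle or on 60 mg/kg/day of Wy-14643, a PPARα agonist, with 3 rats per treatment at 1, 3 and 7 days. The label of treated rat 06 (3 days) gives no dose. The 3 vehicle rats of the PFOA and PFOS study served both compounds, as did each vehicle group of the PB and PCN study.

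PPARα is a nuclear receptor that fatty acids and fibrate-like compounds activate in the liver, where it raises genes of fatty acid oxidation. Vnn1 encodes vanin-1, an enzyme on the cell surface that splits pantetheine into pantothenic acid, the vitamin from which coenzyme A is made, and cysteamine. Angptl4 encodes a protein secreted by liver and fat that inactivates lipoprotein lipase and so slows the clearance of plasma triglycerides. Both genes are textbook targets of PPARα and rise on fasting. Ucp2 and Ucp3 encode carriers of the inner mitochondrial membrane. In healthy liver Ucp2 is known mainly from Kupffer cells, the resident macrophages, and Ucp3 mainly from skeletal muscle.

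Values are deposited intensities per probe set, quantile normalised within a study where array brightness differed and taken as log2(intensity + 16), so that an intensity of 0 lies at a floor of 4.00. Differences and folds below are on that scale, which understates changes of dim probe sets. Mean array intensity ranged from 159 to 454 in the PB and PCN study, 192 to 295 in the 3-week study, 246 to 384 in the PFOA and PFOS study and 317 to 614 in the Wy-14643 study. In the D3T study all 4 arrays of the treated diet were dimmer, with mean intensities of 93.3 to 117, than the 4 control arrays with 276 to 417. In the Wy-14643 study the treated arrays were brighter than their vehicle arrays at 1 day (449 to 563 against 364 to 429) and 3 days (533 to 614 against 317 to 449), and overlapped them at 7 days (410 to 580 against 348 to 486). The array of vehicle male rat 1003 (6 h) correlated with its group's mean at 0.63, against at least 0.97 for the other 4 rats, and was left out. In 9 of 21 stretches of its table its values matched the group better when moved by 1 row, so its values may stand beside the wrong probe sets. All 7 measured hepatocyte markers lay at or above the 98.0th percentile of probe sets in every study, with a median percentile of 99.9. Their summed intensity was lower, without overlap, with PFOA (55900 to 65440) and PFOS (67740 to 70550) than with vehicle (72530 to 74760). It was also lower on the D3T diet (43950 to 46130 against 47800 to 50100) and on each day of Wy-14643 (at 7 days 90070 to 92940 against 99090 to 101400). In the PB and PCN study and the 3-week study treated and vehicle ranges overlapped. In whole liver, fewer cells of a type and less RNA per cell cannot be told apart.

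RefSeq promoters (build GRCr8) were available for Angptl4, Ucp2 and Ucp3. They are shown because PPARα and its partner RXR bind repeats of the half-site AGGTCA spaced by 1 base (AGGTCANAGGTCA). The 250 bases before each gene start follow, 5′ to 3′, with each half-site, on either strand, in capitals.
Angptl4, chr7:15258682-15258931, minus strand: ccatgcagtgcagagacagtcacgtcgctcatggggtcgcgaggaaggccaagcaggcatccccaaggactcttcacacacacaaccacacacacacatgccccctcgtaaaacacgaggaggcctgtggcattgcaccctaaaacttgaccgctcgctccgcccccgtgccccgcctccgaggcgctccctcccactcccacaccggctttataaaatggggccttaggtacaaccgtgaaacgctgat
Ucp2, chr1:164251123-164251372, plus strand: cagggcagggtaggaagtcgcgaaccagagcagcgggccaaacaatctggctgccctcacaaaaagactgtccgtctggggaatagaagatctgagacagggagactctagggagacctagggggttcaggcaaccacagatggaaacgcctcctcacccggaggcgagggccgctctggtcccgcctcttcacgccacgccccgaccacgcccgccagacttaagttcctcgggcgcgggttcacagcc
Ucp3, chr1:164227660-164227909, plus strand: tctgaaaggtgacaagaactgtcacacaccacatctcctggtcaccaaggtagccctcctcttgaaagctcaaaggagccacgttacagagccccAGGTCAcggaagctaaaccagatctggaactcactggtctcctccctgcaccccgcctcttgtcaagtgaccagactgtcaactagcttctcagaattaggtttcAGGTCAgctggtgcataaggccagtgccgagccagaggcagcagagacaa

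The window searched ran on for 50 bases into each gene, and sites farther off on either side were not looked for. Only the Ucp3 window held the half-site, with 2 copies on the gene's own strand that begin at −155 and −50 from the start. At least 1 half-site occurred in 16.2% and at least 2 in 1.81% of 33469 promoters of this length. No window held the spaced repeat exactly, and the closest match had 2 mismatches in Ucp3 and 4 in both Ucp2 and Angptl4. A match with up to 2 mismatches was present in 3.77% of all promoters and in 8 of 50 promoters of the PPARα target genes listed below (16%). Ucp3 and Ucp2 lie on the same strand of chromosome 1, and 0 annotated genes lay wholly between them.

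In the PFOA and PFOS study and the Wy-14643 study, Vnn1 was higher in every treated liver than in every vehicle liver of the same study and day. The other studies used the oldest array, on which Vnn1 and Angptl4 were not measured. In the PFOA and PFOS study the 3 vehicle livers read 8.12, 8.28 and 8.30, the PFOS livers 9.82, 9.88 and 9.90, and the PFOA livers 12.13, 12.29 and 12.38. The 3 groups were stacked without overlap, vehicle lowest and PFOA highest. Against vehicle the difference was 4.03 ± 0.08 (SE, n = 3 per group) for PFOA, with a 95% interval of 3.84 to 4.22, and 1.63 ± 0.08 (1.45 to 1.82) for PFOS. As ratios of intensity + 16 these were 16.3-fold and 3.10-fold. The rise with PFOA was the 24th largest of 31042 probe sets and that with PFOS the 141st. The PFOA dose was 20 and the PFOS dose 10 mg/kg/day, so the compounds are set side by side and were not compared.

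With Wy-14643 the Vnn1 values at 1 day were 10.55, 10.92 and 11.22, against 6.82, 7.12 and 7.48 with vehicle. At 3 days they were 10.63, 11.38 and 11.78 against 6.23, 6.63 and 6.79. After 7 days they were 11.46, 11.77 and 11.79 against 6.42, 6.54 and 6.73. Treated and vehicle livers were separated by more than 3 log2 units on each day. The differences were 3.75, 4.71 and 5.11, each ± 0.27 (SE, n = 3 per group), or 13.5-fold, 26.2-fold and 34.5-fold. Among 15866 probe sets they ranked 9th, 6th and 8th. Rat 06, the one without a stated dose, had the lowest treated value at 3 days, and the difference without it was 5.03.

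The Vnn1 difference from vehicle at 7 days exceeded that at 1 day by 1.35 ± 0.39 on the log2 scale (0.52 to 2.19), and the one at 3 days exceeded it by 0.96 ± 0.39 (0.12 to 1.79). Both are built from the differences that led to the choice of Vnn1, so they are given without a test. In the vehicle livers Vnn1 was 0.58 and 0.59 lower at 7 and at 3 days than at 1 day, differences that did not pass (adjusted p of 1 and 0.99, limma). The treated livers themselves overlapped between 1 and 3 days and between 3 and 7 days, while those of 7 days all lay above those of 1 day.

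**Figure D1:**
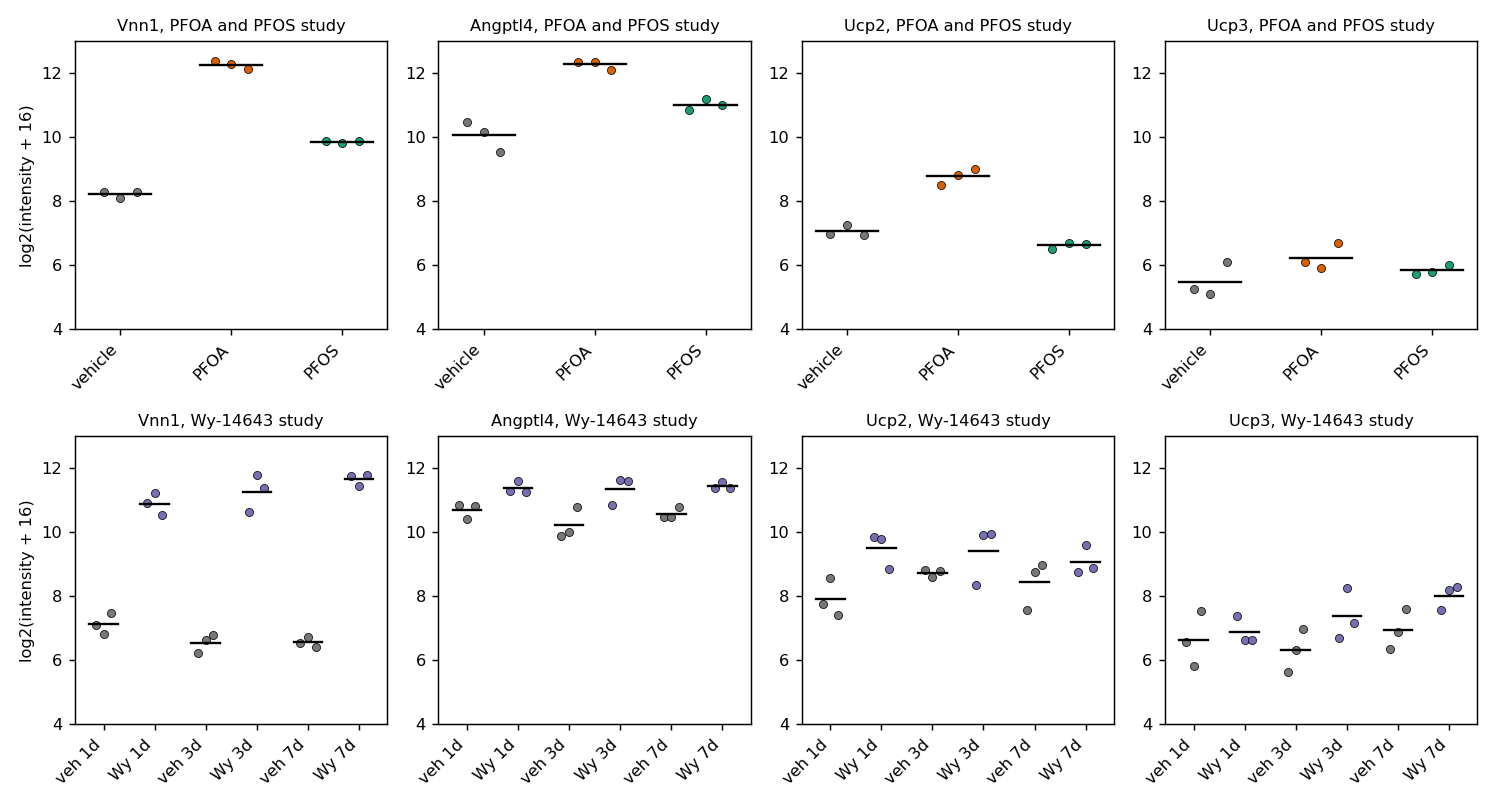
Log2(intensity + 16) of Vnn1, Angptl4, Ucp2 and Ucp3 in each liver of the PFOA and PFOS study (top) and the Wy-14643 study (bottom, veh for vehicle). Each point is 1 rat and each line a group mean of 3 rats. Vnn1 lies between 6.23 and 8.30 in all vehicle livers and above 9.8 in all treated livers, while Ucp3 groups overlap.

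Vanin-1 acts within the turnover of coenzyme A, and 15 other genes of that turnover were listed. This and the other gene lists below were chosen with earlier results of these data known, so their counts and p-values are descriptions. With PFOA 4 of the 14 measured rose and 1 fell (limma, adjusted p under 0.05), where 3.23% of all probe sets rose and 2.83% fell. Those that rose most were Nudt7, a peroxisomal hydrolase that degrades coenzyme A, by 2.11 ± 0.29 (adjusted p = 0.013, limma), and Ppcs, which makes phosphopantothenoylcysteine, by 1.66 ± 0.10 (adjusted p = 0.0011, limma). Pank3, a pantothenate kinase, fell by 1.19 ± 0.16 (adjusted p = 0.011, limma). Without vehicle rat R95436 or R95435 only 2 of the list rose. With PFOS 1 of 14 rose, Ppcs by 0.88 ± 0.10 (adjusted p = 0.029, limma), where 0.283% of probe sets rose. That call was lost without any 1 of rats R95435, R95434, R95481, R95479 and R95480, which left 0. As deposited, without normalisation, Pank3 and Ppcs with PFOS did not pass.

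With Wy-14643 3, 2 and 3 of 11 measured genes of coenzyme A turnover rose at 1, 3 and 7 days, and 0 fell. The background was 5.94%, 5.56% and 6.57% of probe sets that rose. Nudt7 rose by 1.95, 1.43 and 1.94 (each ± 0.23) and Ppcs by 1.08, 1.01 and 1.01 (each ± 0.21). Slc25a42, the mitochondrial coenzyme A carrier, rose by 1.22 ± 0.26 at 1 day and 1.31 ± 0.26 at 7 days. Medians of the list were 0.34 with PFOA and between 0.02 and 0.21 with Wy-14643, beside a median of 0.00 over all probe sets. The count at 3 days was 0 with only the compared groups fitted and 5 as deposited, and 1 gene fell there without vehicle rat 26.

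Angptl4 was higher in every treated liver of these studies than in the vehicle livers of the same day, by less than Vnn1. With vehicle it read 9.53, 10.18 and 10.49 in the PFOA and PFOS study. PFOS livers were at 10.85, 11.01 and 11.21 and PFOA livers at 12.10, 12.37 and 12.37. The groups did not overlap and stood in the same order as for Vnn1. The differences were 2.21 ± 0.24 (SE, n = 3 per group; 1.63 to 2.79) for PFOA and 0.95 ± 0.24 (0.37 to 1.53) for PFOS, or 4.64-fold and 1.94-fold. They ranked 188th and 822nd among the 31042 probe sets.

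In the Wy-14643 study Angptl4 read 11.26, 11.28 and 11.61 after 1 day against 10.41, 10.83 and 10.85 with vehicle. At 3 days it read 10.85, 11.60 and 11.63 against 9.89, 10.01 and 10.78, the lowest treated value being that of rat 06. At 7 days it read 11.39, 11.40 and 11.59 against 10.48, 10.49 and 10.80. Treated livers lay above vehicle livers each day, at 3 days narrowly. The differences were 0.69, 1.13 and 0.87, each ± 0.25 (SE, n = 3 per group), or 1.61-fold, 2.19-fold and 1.83-fold. The difference was 0.45 ± 0.35 larger at 3 days (−0.31 to 1.20) and 0.19 ± 0.35 larger at 7 days (−0.56 to 0.94) than at 1 day, and both intervals held 0.

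ANGPTL4 acts on lipoprotein lipase, and 19 other genes around that enzyme were listed. With PFOA 1 of 16 measured rose and 4 fell, beside 3.23% and 2.83% of all probe sets. Lpl, the lipase itself, rose by 1.95 ± 0.37 (adjusted p = 0.033, limma). Apoa5, an activator of the lipase, fell by 1.28 ± 0.19 (adjusted p = 0.017, limma) and Lrp1, a receptor for lipoprotein remnants, by 1.18 ± 0.23 (adjusted p = 0.036, limma). The list's median was −0.55. These calls rested on single rats: the number that fell was 1 without vehicle rat R95436, 0 without R95435, 2 without R95434, 0 without PFOA rat R95472 and 2 without R95471, and the Lpl call was lost without any 1 of R95436, R95434, R95472, R95470 and R95471. With PFOS 0 of 16 passed in either direction, and 0 had an unadjusted p under 0.05 (limma).

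With Wy-14643 Lpl differed by 0.15 ± 0.38 at 1 day, which did not pass, and rose by 2.12 ± 0.38 at 3 days and 2.91 ± 0.38 at 7 days (adjusted p = 0.0036 and 0.00031, limma). Of 14 measured genes of the system 2, 5 and 5 fell, where 5.52%, 5.22% and 6.49% of probe sets fell. The Apoa5 differences were −1.07, −1.47 and −1.50 (each ± 0.18), all passing. Those of Apoa4, an apolipoprotein of triglyceride-rich particles, were −2.81 ± 0.56 at 3 days and −6.25 ± 0.56 at 7 days (adjusted p = 0.0067 and 1.9e-05, limma). The count of 2 at 1 day was 1 without any 1 of rats 22, 23, 24, 03 and 04, and the count of 5 at 3 days was 2 both as deposited and with only the compared groups fitted.

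**Figure D2:**
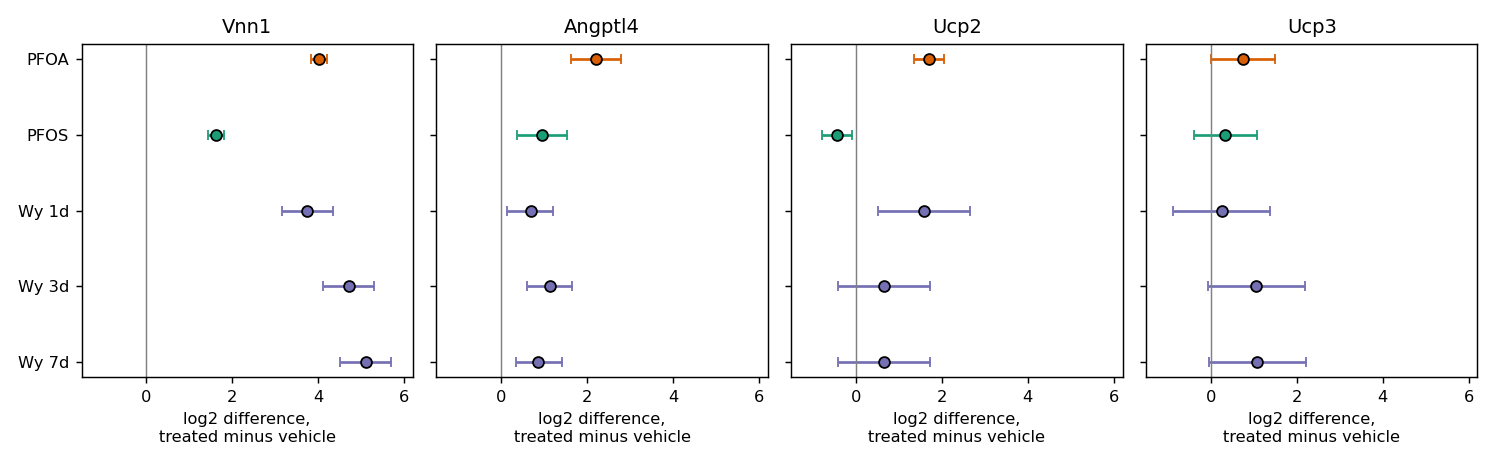
Log2 differences, treated minus vehicle, of the 4 genes (Ucp3 by its probe set shared by both arrays) with 95% intervals from limma, for PFOA, PFOS and 3 durations of Wy-14643, 3 rats per group. Intervals of Vnn1 and Angptl4 lie above 0 throughout, and Ucp2 lies at −0.44 with PFOS.

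A list of 53 other PPARα target genes gives the setting of these differences. With Wy-14643 35, 39 and 41 of its 44 measured genes rose at 1, 3 and 7 days and 0 fell, with medians of 1.46, 1.65 and 1.82, where 5.94%, 5.56% and 6.57% of all probe sets rose. With PFOA 30 of 48 rose and 0 fell, with a median of 1.44, where 3.23% of probe sets rose. With PFOS 6 of 48 rose and 0 fell, with a median of 0.32, where 0.283% of probe sets rose. The PFOS count was 0 without any 1 of rats R95436, R95435, R95481 and R95480, 1 without R95434 and 4 without R95479, and 1 gene fell without R95480. The cytosolic acyl-CoA thioesterase Acot1 had the largest rises, by 8.26 ± 0.44 with PFOA and by 7.84, 7.87 and 8.39 (each ± 0.38) with Wy-14643, and differed by 0.37 ± 0.44 with PFOS. Among the PFOS calls, the mitochondrial thioesterase Acot2 rose by 1.54 ± 0.21, Eci1, an enzyme of unsaturated fatty acid oxidation, by 1.47 ± 0.18 and the carnitine palmitoyltransferase Cpt2 by 1.38 ± 0.17 (adjusted p = 0.047, 0.033 and 0.032, limma).

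Vnn1 stood near the top of this list in each comparison: 4 of 48 listed genes had a larger difference with PFOA, 1 of 48 with PFOS, and 1, 2 and 3 of 44 with Wy-14643. Angptl4 was passed by 15 of 48 genes with PFOA, 8 of 48 with PFOS, and 33, 31 and 33 of 44 with Wy-14643. Ucp2 was passed by 20 of 48 with PFOA, 43 of 48 with PFOS, and 17, 38 and 37 of 44 with Wy-14643. Ucp3 (the probe set of both arrays) was passed by 35, 23, 41, 31 and 30 genes in the same order. As the members were selected on these contrasts, their places describe them and support nothing further.

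Angptl4 and Vnn1 also rise on fasting, and 14 other genes that respond to fasting or glucocorticoids were listed. Of 12 measured 1 rose with PFOA, where 3.23% of probe sets rose, the serine dehydratase gene Sds by 2.22 ± 0.46 (adjusted p = 0.043, limma), which was lost without any 1 of rats R95436, R95435, R95472, R95470 and R95471. With PFOS 0 passed (3 at an unadjusted p under 0.05, limma). With Wy-14643 0 rose, and 1, 0 and 1 of 12 fell at 1, 3 and 7 days, beside 5.52%, 5.22% and 6.49% of probe sets. The gene that fell was Nr3c1, the glucocorticoid receptor, by 0.63 ± 0.15 at 1 day and 0.53 ± 0.15 at 7 days (adjusted p = 0.017 and 0.034, limma). Both counts were 0 as deposited and with only the groups compared in the fit. The count at 1 day was 0 without any 1 of rats 22, 24, 03 and 05. At 3 days it was 1 without rat 28 or 06, and at 7 days 0 without any 1 of rats 34, 35, 13 and 14 and 3 without rat 12. The list's medians were −0.14, −0.32 and 0.04 with Wy-14643, 0.05 with PFOA and 0.27 with PFOS.

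**Figure D3:**
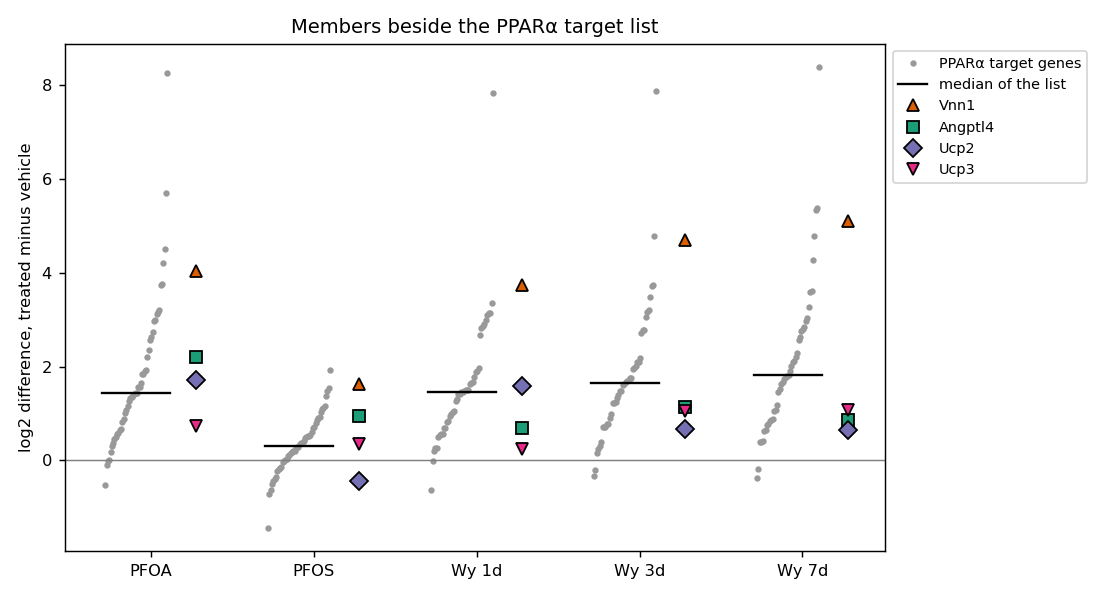
Log2 differences, treated minus vehicle, of the PPARα target list (grey points, 48 genes with PFOA or PFOS and 44 with Wy-14643, black line at the median) beside the 4 genes. Vnn1 lies among the upper end of the list in all 5 comparisons, and Angptl4 lies above the median with PFOA and PFOS and below it with Wy-14643.

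Ucp2 was higher with PFOA and lower with PFOS than with vehicle. Vehicle livers read 6.95, 6.99 and 7.26, PFOA livers 8.50, 8.83 and 9.0, and PFOS livers 6.50, 6.67 and 6.69. The 3 groups did not overlap. Against the shared vehicle rats the difference was 1.71 ± 0.15 (SE, n = 3 per group; 1.36 to 2.06) for PFOA, 3.28-fold, and −0.44 ± 0.15 (−0.79 to −0.09) for PFOS. Counted from the largest rise, it ranked 366th of 31042 with PFOA and 27003rd with PFOS, so many probe sets had a lower difference with PFOS. Without normalisation between arrays the PFOS difference was −0.68.

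With Wy-14643 for 1 day Ucp2 read 8.85, 9.78 and 9.86 against 7.42, 7.75 and 8.57 with vehicle, without overlap, a difference of 1.58 ± 0.49 (SE, n = 3 per group; 0.52 to 2.65). At 3 days treated livers read 8.34, 9.92 and 9.95 and vehicle livers 8.61, 8.78 and 8.82. At 7 days they read 8.75, 8.90 and 9.60 against 7.57, 8.76 and 8.98. On both later days the groups overlapped, with differences of 0.66 ± 0.49 (−0.41 to 1.73) and 0.65 ± 0.49 (−0.42 to 1.72). The overlap at 3 days came from rat 06, the lowest of the 6, and without it the difference was 1.19. The differences at 3 and 7 days were 0.92 and 0.93 below that at 1 day, each ± 0.70, with intervals that held 0.

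Macrophage markers were read beside Ucp2, which was higher with PFOA and lower with PFOS. Of 14 measured 0 rose and 1 fell with PFOA (2.83% of probe sets fell), with a median of −0.78, and the summed intensity of the list was 6545 to 10990 with PFOA against 11610 to 16370 with vehicle. With PFOS 0 rose and 1 fell (0.177% of probe sets fell), the median was −0.31 and the sum was 8306 to 12750. The marker that fell in both was Cd14, a receptor for bacterial lipopolysaccharide, by 1.65 ± 0.16 with PFOA and 1.33 ± 0.16 with PFOS (adjusted p = 0.0048 and 0.034, limma). With Wy-14643 at 1 day the sum over 11 markers was 4942 to 5764 against 4933 to 5901 with vehicle, and 0 passed in either direction (1 at an unadjusted p under 0.05, limma). At 3 days the sum was 4199 to 5583 against 5766 to 9069, without overlap. At 7 days 4 of 11 fell (6.49% of probe sets fell), with a median of −0.79 and a sum of 2879 to 3307 against 4598 to 7529. None of these markers was at 0 on all arrays of a group. The part of macrophages in the Ucp2 values was not tested.

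In the 3-week PFOS study of female rats the probe sets of Ucp2 disagreed. The name of AB005143 ends in the suffix that Affymetrix gave to sets matching several transcripts. By the brighter one (AB010743) vehicle livers read 8.72 and 9.41 and PFOS livers 7.70 and 8.82, which overlapped, with a difference of −0.81 ± 0.59 (SE, n = 2 per group; −2.92 to 1.31). By the other (AB005143) they read 5.81 and 5.99 against 6.12 and 6.14, a difference of 0.23 ± 0.08 (−0.06 to 0.52) without overlap. Summed macrophage markers (8 measured) were 1935 to 2904 with vehicle and 1510 to 2109 with PFOS, which overlapped. Their part in the Ucp2 values was not tested. With 2 rats per group 0% of the 8740 probe sets passed limma, 421 having an unadjusted p under 0.05. The PPARα list had 34 of 39 genes at a higher mean with PFOS and a median of 0.59, with 0 calls (11 at an unadjusted p under 0.05). The study also differed from the other PFOS study in sex, age, dose and vehicle.

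On the D3T diet the deposited Ucp2 intensities were lower in all 4 rats. By AB010743 they were 130.9, 168.5, 262.8 and 355.6 against 625.3, 898.9, 1092 and 1537 on control diet. The arrays of the D3T diet were dimmer as a whole, and after quantile normalisation the log2 values were 8.80, 8.94, 9.30 and 9.64 against 8.84, 9.36, 9.54 and 9.63, which overlapped. The difference became −0.17 ± 0.25 (SE, n = 4 per group; −0.77 to 0.43) in place of −2.12 as deposited. By AB005143 it was 0.06 ± 0.26 in place of −1.50. Diet and array brightness cannot be told apart here. The summed macrophage markers were 1358 to 1697 on the D3T diet and 1760 to 2203 on control diet after normalisation, and their part in the Ucp2 values was not tested. Of 39 PPARα targets 18 had a higher mean on D3T, with a median difference of −0.11. By limma 3 rose and 7 fell, beside 5.22% and 7.33% of probe sets, and as deposited 0 rose and 31 fell. The number that rose was 1 without any 1 of D3T rats 1, 3 and 4 and control rats 1, 2 and 3. The number that fell was 3 without D3T rat 1, 2 or 4 or control rat 2, 2 without control rat 3 and 4 without control rat 4.

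**Figure D4:**
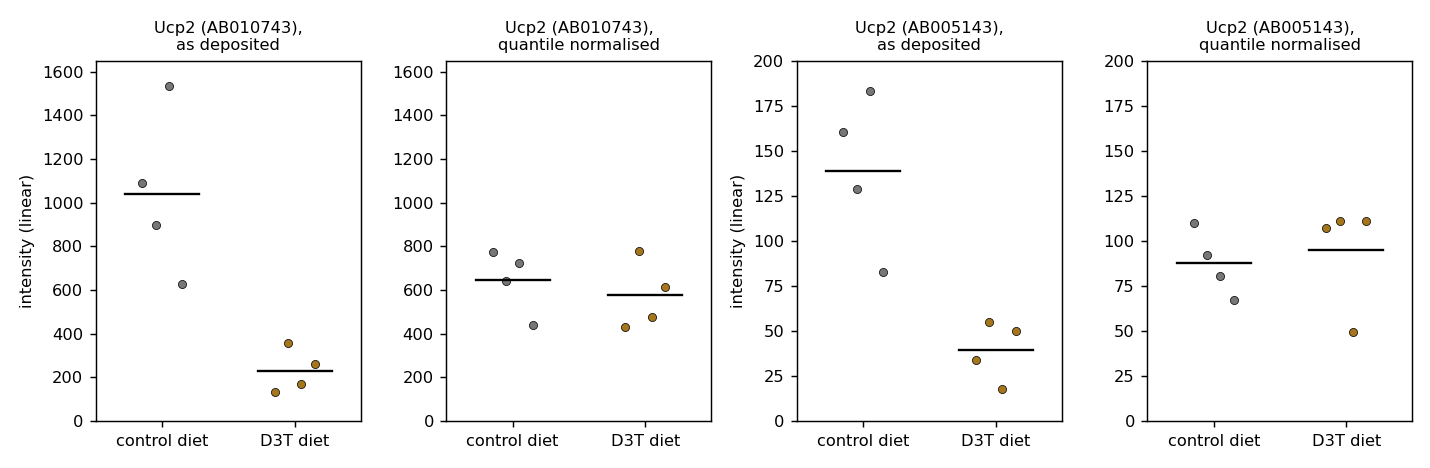
Linear intensity of both Ucp2 probe sets in the 4 rats on control diet and the 4 on the D3T diet, as deposited and after quantile normalisation. Points are rats and lines group means. The groups are apart as deposited and overlap after normalisation.

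Ucp2 lay close to its vehicle level with PB and PCN. Over the 12 treated groups the differences from the matching vehicle group lay between −0.33 and 0.15 by AB010743 and between −0.49 and 0.07 by AB005143, and all overlapped their vehicle group. The farthest was PB in males after 5 doses by AB005143, where 5 rats read 5.86 to 6.75 with a median of 6.50, against 6.64 to 6.99 with a median of 6.89 in vehicle males. That difference of −0.49 ± 0.15 (−0.78 to −0.19) was −0.19 ± 0.20 by AB010743. In females the same comparison gave 0.07 ± 0.15, which was 0.56 ± 0.21 above that in males (0.14 to 0.98). Over all 89 arrays the probe sets of Ucp2 correlated at r = 0.631. Summed macrophage markers (8 measured) lay between 1247 and 3343 in this study. In males after 5 doses they were 2198 to 2553 with vehicle and 2252 to 2748 with PB, which overlapped.

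Ucp3 varied widely between rats of a group, and in the PFOA and PFOS study and the Wy-14643 study no treated group stood clear of its vehicle group. In the PFOA and PFOS study the probe set shared with the Wy-14643 arrays read 5.11, 5.26 and 6.11 with vehicle, 5.91, 6.10 and 6.69 with PFOA and 5.72, 5.78 and 6.02 with PFOS. Vehicle rat R95434, the highest of its group, lay within both treated ranges or above them. The differences were 0.74 ± 0.31 (SE, n = 3 per group; interval from just below 0 to 1.48) and 0.34 ± 0.31 (−0.40 to 1.08). The second Ucp3 probe set of this array gave 0.97 ± 0.50 (−0.22 to 2.15) and 0.42 ± 0.50 (−0.76 to 1.61), here with vehicle rat R95434 (6.41) above every treated liver.

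With Wy-14643 Ucp3 read 6.63, 6.64 and 7.39 at 1 day against 5.81, 6.57 and 7.53 with vehicle. At 3 days it read 6.69, 7.18 and 8.27 against 5.65, 6.33 and 6.97, and at 7 days 7.57, 8.20 and 8.30 against 6.35, 6.88 and 7.61. Groups overlapped on each day, at 7 days by the single vehicle value of 7.61. The differences were 0.25, 1.06 and 1.08, each ± 0.52 (SE, n = 3 per group), with intervals that held 0. Skeletal muscle markers, a check for RNA of the tissue best known for Ucp3, summed to 317 to 439 with Wy-14643 at 7 days and to 1050 to 1123 with vehicle, with Acta1 and Mb at 0 on all these arrays. With PFOA the 9 markers summed to 82.0 to 137 against 440 to 952 with vehicle and 143 to 910 with PFOS, with Mb at 0 on all 9 arrays. None of the 9 passed with PFOA or PFOS (2 each at an unadjusted p under 0.05, limma), and 0, 2 and 1 fell with Wy-14643 at 1, 3 and 7 days, beside 5.52%, 5.22% and 6.49% of probe sets. Their part in Ucp3 was not tested. Of 4 relatives among the mitochondrial carriers (Ucp1, Slc25a14, Slc25a27 and Slc25a30) 0 passed in these 5 comparisons (limma; 1 each with PFOA and PFOS at an unadjusted p under 0.05, and 0 with Wy-14643).

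In the 3-week PFOS study Ucp3 by AF035943 read 4.00 and 4.10 with vehicle and 5.00 and 6.05 with PFOS, without overlap, a difference of 1.48 ± 0.47 (SE, n = 2 per group; −0.23 to 3.18). By AF030163 it read 4.00 and 4.39 against 4.13 and 5.40, which overlapped (0.57 ± 0.60). With 2 rats per group ranges separate easily, and the interval by AF035943 held 0. On the D3T and control diets both probe sets read 4.00 in all 8 rats, apart from D3T rat 4 at 4.57 by AF035943.

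On the oldest array Ucp3 was at the floor in most livers of the PB and PCN study, on 51 of 89 arrays by AF030163 and on 61 by AF035943, and the probe sets correlated at r = 0.108. By AF030163 a sex difference appeared in vehicle rats. All 14 vehicle males were at the floor, while 13 of 15 vehicle females read above it. Vehicle females at 24 h read 4.00 to 5.59 with a median of 5.28, and after 5 doses 4.46 to 5.47 with a median of 5.21. Females exceeded males by 1.13 ± 0.24 at 24 h (adjusted p = 0.00056, limma, n = 5 per group; 5.03% of probe sets passed) and by 1.00 ± 0.24 after 5 doses (adjusted p = 0.003, limma, n = 5 per group; 5.30% passed). At 6 h the difference of 0.53 ± 0.25 did not pass (adjusted p = 0.25, limma; 6.49% passed). Female rat 1507 at 24 h was itself at the floor, and the groups overlapped there and at 6 h. As males were listed at 0, no fold is given, and the size of the difference follows from the added 16. Each SE pools all groups of the study, among them every vehicle and PCN male group, whose rats all lay at the floor (SD 0.00). Vehicle females had an SD of 0.65 at 24 h and 0.42 after 5 doses. The SEs and p-values therefore do not measure the spread of these females alone. With only the compared groups fitted the SE at 24 h was 0.28. Markers of other cells moved in the same comparison at 24 h: of 3 blood markers 2 were lower in females, with a median of −0.73 and sums of 2251 to 3376 against 3801 to 6452 in males. The macrophage marker Cd14 was also lower, by −0.77 ± 0.21 (adjusted p = 0.017, limma), with summed macrophage markers of 1860 to 2716 against 1746 to 3021. After 5 doses 0 blood and 0 macrophage markers passed (0 and 1 at an unadjusted p under 0.05, limma), with blood sums of 2283 to 4848 against 2774 to 5325. Their part in the Ucp3 difference was not tested.

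By AF035943 no sex difference passed among vehicle rats, with differences of −0.14, 0.16 and 0.00 (adjusted p of at least 0.95, limma) and 1 of 15 females and 1 of 14 males above the floor. The sex difference was thus seen by 1 of the Ucp3 probe sets, whose name ends in the suffix that Affymetrix gave to sets matching more than 1 transcript. The AF030163 calls were also lost in some fits: with rat 1003 kept in, whose values may be displaced, the adjusted p (limma) was 0.093 at 24 h and 0.16 after 5 doses, and with only the compared groups fitted it was 0.071 at 24 h. Ucp3 could not be compared by sex in the other studies, which used 1 sex each.

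In females after 5 doses Ucp3 was higher on average with PB than with PCN by both probe sets. By AF030163 PB females read 4.22 to 5.97 with a median of 5.25, and PCN females 4.00 to 4.98 with a median of 4.11. By AF035943 they read 4.00 to 5.59 with a median of 5.13, against 4.00 to 4.69 with 4 of 5 at the floor. The ranges overlapped. PB lay above PCN by 0.73 ± 0.24 (0.26 to 1.20) and 0.84 ± 0.27 (0.31 to 1.37; SE, n = 5 per group). These SEs pool the spread of all groups of the study, and with only the compared groups fitted they were 0.36 and 0.32. Leaving out 1 rat gave differences of 0.50 to 0.94 and 0.68 to 1.08, with PB rat 4514 behind both lowest values. The differences from vehicle were unlike between the probe sets. By AF030163 PB was 0.05 above and PCN 0.68 below vehicle, and by AF035943 PB was 0.97 and PCN 0.14 above it. All of these come from the groups that led to the choice of Ucp3 and carry no test.

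Markers of other cells differed between the same PB and PCN females. Of 8 macrophage markers all 8 were higher with PB, with a median of 0.49 and sums of 2311 to 3027 against 1457 to 2133, and 3 passed (C1qb, Lyz2 and Aif1; limma), where 6.91% of probe sets passed. Blood markers were lower with PB, with a median of −0.43, sums of 1141 to 2772 against 2404 to 4934, and 1 of 3 passing (Hbb). Of 5 adipocyte markers 1 passed (Lipe, higher with PB), with a median of 0.00 and sums of 447.2 to 736.2 against 544.1 to 618.2. Their part in Ucp3 was not tested.

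In males at 24 h Ucp3 by AF035943 read 4.00 to 5.74 with a median of 5.21 with PB, vehicle rats were all at the floor, and PB lay 0.69 ± 0.27 above PCN (0.16 to 1.22). By AF030163 PB lay 0.28 ± 0.24 above PCN in the same males (−0.20 to 0.75). By AF035943 16 of 30 livers of PB rats read above the floor, against 10 of 30 of PCN rats and 2 of 29 of vehicle rats. By AF030163 the counts were 16 of 30, 9 of 30 and 13 of 29, in the order PB, PCN and vehicle. In that order they were 13, 9 and 13 of 15 in females, and 3 of 15, 0 of 15 and 0 of 14 in males. Skeletal muscle markers summed to between 170.9 and 376.7 over all groups of this study, with Tnni2 at 0 on all of its arrays.

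**Figure D5:**
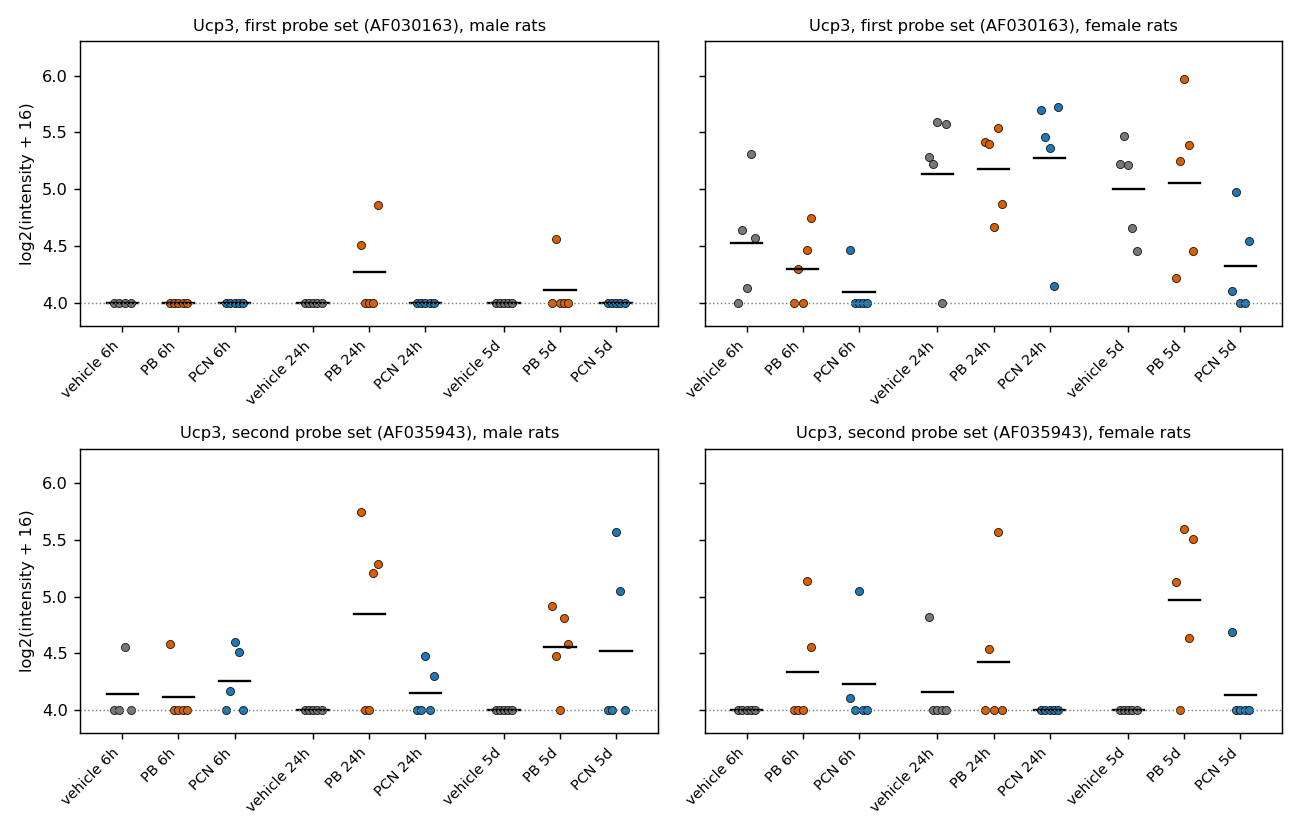
Log2(intensity + 16) of both Ucp3 probe sets in each liver of the PB and PCN study, by sex, compound and time. Points are rats, lines group means of 5 rats (4 in vehicle males at 6 h), and the dotted line is the floor of 4.00. By AF030163 all vehicle males lie at the floor and 13 of 15 vehicle females above it, and by AF035943 most vehicle livers of both sexes lie at the floor.

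Between vehicle groups alone 36 tests of a member probe set were made, of which 2 passed (limma, Benjamini-Hochberg over the array), the sex differences of Ucp3 by AF030163, and 4 had an unadjusted p under 0.05. No member passed between vehicle groups of different times, where 0.400% and 1.60% of probe sets passed in males (24 h against 6 h, and 5 doses against 24 h) and 3.79% and 0.641% in females. In the Wy-14643 study 0.0315% of probe sets passed between vehicle livers of 3 days and 1 day and 0% (787 at an unadjusted p under 0.05, limma) between those of 7 days and 1 day. The nearest was Ucp3 by AF030163 in vehicle females, 0.60 ± 0.24 higher at 24 than at 6 h (adjusted p = 0.17, limma), which passed without rat 1503 (0.80, adjusted p = 0.044, limma) or 1507 (0.88, adjusted p = 0.014, limma).

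PPARα target genes were measured beside Ucp2 and Ucp3 in the PB and PCN study, 39 of them. Their median difference from vehicle at 6 h, 24 h and 5 doses was −0.03, 0.20 and −0.28 with PB in males and 0.29, 0.09 and −0.41 with PB in females. With PCN it was −0.08, 0.11 and 0.01 in males and −0.10, −0.02 and −0.24 in females. Between vehicle groups, the median was 0.52 in males and 0.39 in females from 24 h to 5 doses. Counts of calls for these genes are not given, because they moved by over 1.5 times with a rat or a setting in every comparison with vehicle but that of PCN in males at 24 h.

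The genes most like each member over all arrays of a study, by Pearson correlation as a description over rats that share their groups, were these. Over the 18 Wy-14643 arrays Vnn1 went with Hadhb (r = 0.993), Pex11a (0.992) and Slc25a20 (0.992), a β-oxidation subunit, a peroxisome protein and the carnitine-acylcarnitine carrier. Angptl4 went with Adam22 (0.933), Cpt1a (0.920) and Crat (0.906), Ucp2 with Gtf2b (0.870), Caprin1 (0.860) and Pdcl (0.850), and Ucp3 with Spryd7 (0.848), Zmym1 (0.842) and Diablo (0.810). Over the 9 arrays of the PFOA and PFOS study Vnn1 went with Dhdds (0.993), Slc22a5 (0.992) and Acot2 (0.991), Angptl4 with Plce1 (0.990), Get4 (0.977) and Cyp2j4 (0.975), and Ucp2 with Caprin1 (0.984), Paqr7 (0.974) and Hpgd (0.972). Vnn1 and Angptl4 correlated with each other at 0.885 over the 18 and 0.961 over the 9 arrays, and Vnn1 and Ucp2 at 0.617 and 0.801. Ucp3 by the shared probe set went with Mtus1 (0.984), Lmna (0.965) and Ptbp1 (0.963) and by the second with Prkch (0.939), Zpr1 (0.930) and Lats1 (0.923). In the PB and PCN study (89 arrays) the highest were Ptms (0.604) and Sparc (0.607) for Ucp2 by AB005143 and AB010743, and Cyp2a1 (0.696) and Slc6a9 (0.508) for Ucp3 by AF030163 and AF035943.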

How the data were processed

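Expression was measured on 129 one-colour Affymetrix rat arrays. Per the labels and the values, the authors deposited linear intensity per probe set, with negative values. The software behind them is not given in the sources used here. The members and gene lists were chosen with earlier results of these data known.

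Within each study whose array medians (log2) ranged over more than 0.5, arrays were quantile normalised, so that the 3-week PFOS study alone stayed as deposited. Negative values were set to 0 and log2(intensity + 16) was taken. Control probe sets and rat 1003 were left out. Group means were fitted per study with limma 3.58.1 (lmFit, eBayes) in R 4.3.3. All p-values are two-sided and adjusted by Benjamini-Hochberg over the tested probe sets of the array, with 0.05 as threshold. Listed genes were read from their brightest probe set and named through the platform annotation, updated with RefSeq (GRCr8). Named genes were the members, up to 3 per list and comparison with the largest change that passed, and the 3 most correlated genes per member probe set. Values of Lpl and Acot1 where they did not pass were added after they were seen. Tests planned for members between PB and PCN, between the sexes' effects and between days of Wy-14643 are given without p-values, since they are built from the differences that led to the choice. The fit was tested on simulated data. Also run were pseudocounts of 1 and 64, scaling on array medians, the dimmest probe sets dropped, robust trended moderation, the compared groups fitted alone, rat 1003 kept, each array left out in turn and, chosen after seeing the data, no normalisation. The number of arrays limits the precision. Figures used Python 3.11.15 and matplotlib 3.10.9.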

Additional observations from a re-analysis of the deposited data

Results flagged for a closer look

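In 65 groups of 4 or 5 rats, each read by 1 member probe set, the rat farthest out was set against the rest by Dixon's ratio, and 14 stood apart. Chance gives about 1 in 20 where values spread freely. In 7 of the 14 every other rat lay at the floor, so that any value above it stands apart by construction and that rate does not apply. For Ucp2 by AB005143, D3T rat 2 was low at 6.03 (next 6.94), PCN female 5514 after 5 doses was low at 6.06 (next 6.60) and PCN male 5010 at 24 h was high at 7.21 (next 6.76). By AB010743, PB male 4014 after 5 doses was low at 8.56 (next 9.08).

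The other 10 were Ucp3 values, 2 of them low and 8 high in groups near the floor of 4.00. By AF030163, PCN female 5506 at 24 h was low at 4.15 (next 5.36), vehicle female 1507 at 24 h was at 4.00 (next 5.22), PCN female 5501 at 6 h was high at 4.47 and PB male 4014 after 5 doses was high at 4.56. By AF035943 the high values were 4.57 (D3T rat 4), 4.69 (PCN female 5514, 5 doses), 5.05 (PCN female 5503, 6 h), 4.82 (vehicle female 1506, 24 h), 4.58 (PB male 4003, 6 h) and 4.56 (vehicle male 1004, 6 h). Rats 4014 and 5514 each stood apart by a Ucp2 and by a Ucp3 probe set.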

How the results depend on the processing

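Vnn1 and Angptl4 kept their direction under every alternative run for PFOA, PFOS and Wy-14643, and leaving out 1 rat gave 3.97 to 4.12 for Vnn1 with PFOA. With a pseudocount of 64 the Vnn1 differences were 3.83 (PFOA), 1.49 (PFOS) and 3.36, 4.14 and 4.54 (Wy-14643 at 1, 3 and 7 days), Ucp2 with PFOA was 1.42, and Ucp2 (AB005143) in the 3-week study 0.13. With median scaling Vnn1 and Angptl4 with PFOS were 1.98 and 1.43. As deposited Vnn1 was 4.19 with PFOA and 5.31 with Wy-14643 at 3 days, Angptl4 1.02 and 1.77 at 1 and 3 days, and Ucp2 1.96 with PFOA, −0.68 with PFOS, 1.37 with Wy-14643 at 3 days, and −2.12 and −1.50 on D3T. PPARα targets rising with PFOS numbered 0 as deposited, 0 with only the groups compared, and 0 to 4 with 1 rat left out.

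The sex difference of Ucp3 (AF030163) was 1.13 at 24 h with only the groups compared and with rat 1003 kept, and 1.00 after 5 doses with rat 1003 kept, none passing (adjusted p = 0.071, 0.093 and 0.16, limma), and 1.02 to 1.41 and 0.89 to 1.14 with 1 rat left out. For PB minus PCN in females after 5 doses, AF030163 and AF035943 gave 2.25 ± 0.78 and 2.84 ± 1.02 with a pseudocount of 1. They gave 0.74 ± 0.24 and 0.83 ± 0.27 with median scaling and 0.80 ± 0.26 and 0.79 ± 0.26 as deposited. AF030163 gave 0.73 ± 0.39 with rat 1003 kept. With 1 rat left out the ranges were 0.50 to 0.94 and 0.68 to 1.08. Fitting only the groups compared cannot change a difference of group means, and left 0.73 and 0.84. It changed the SEs, to 0.36 and 0.32 from 0.24 and 0.27. With rat 1003 kept, Ucp2 (AB010743) with PCN in males at 6 h turned from −0.33 to 0.50. The causes were not tested, other than that rat 1003 widens the spread of its group. In the D3T study, deviations from the group means correlated at 0.27, −0.08, −0.10 and −0.20 between rats of the same number. Whether the numbers mark pairs was not settled by these values. A replicate block left Ucp2 at −0.17 and 0.06, and 0 PPARα targets rose or fell with it. Over all results, leaving out 1 rat left 2715 values the same, moved 130, ended 13 calls and made 2. All 13 calls ended were of Ucp3 between PB and PCN females after 5 doses, which is given here without a test. Neither sex difference of Ucp3 that passed was lost with 1 rat left out. The other alternatives left 2073 the same, moved 173, ended 12 calls and reversed 1. Those 12 calls were of the same PB and PCN contrast or of the sex differences of Ucp3 by AF030163. The 2 rats per group in the 3-week study and the floor of Ucp3 limit what could be seen.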
